A study of Mus musculus with 47 samples.

Results

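The 27 single muscle fibres labelled WT (wild-type), out of 47 single fibres sequenced in the series, were examined for which transcripts they held and how far each transcript varied from fibre to fibre. The members were chosen by genotype label alone, and the 20 fibres of the knockout group (C2-/-, without Mybpc2) were left out. The fibres came from the EDL (Extensor Digitorum Longus, a fast muscle of the hindlimb). The donors were 3 mice on the FVB/N background, 2 to 3 months old. The labels name no allele other than WT and no treatment. Each fibre was freed with collagenase and trituration, picked under a microscope, washed and lysed for total RNA. The labels did not tie a fibre to a mouse, so the fibres were treated as 1 sample of fibres from a group of mice, and no test was made. Differences between fibres and differences between mice could not be told apart.

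Type IIb fibres are the fastest and most glycolytic fibres of rodent limb muscle. They are defined by the myosin heavy chain Myh4, pump calcium back into the sarcoplasmic reticulum with Atp2a1 (SERCA1), and build their thin filaments on the skeletal actin Acta1. They rest on stored phosphocreatine and glycogen for short bursts of force and have few mitochondria. A fibre is a syncytium with many nuclei, so RNA from 1 fibre averages over its nuclei, including the specialised nuclei under the nerve ending and near the tendon.

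The gene counts were 7769593 to 14606631 per fibre, and 11183 to 13142 genes had a count in a fibre. Libraries were sequenced in 3 runs, named in the labels as run2868 (10 fibres), run2869 (10 fibres) and run0092 (7 fibres), and the 7 fibres of run0092 were the shallowest. No 2 fibres agreed within sampling noise: over 351 pairs, the chi-square per degree of freedom was at least 8.40. Fibre 13 stood apart, with the lowest median rank correlation with the other fibres, 0.892 against 0.904 for the next fibre, and it is named wherever it moved a value. The study describes the mice of this experiment as male, and reports its own comparison on 10 fibres in each group. Which fibres those were is not given. Among the 27 WT fibres examined here, 12 held the X-inactivation transcript Xist and 15 held Y-linked transcripts, as described further on.

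The fibres devoted a large part of their RNA to a short list of contractile, calcium-handling and energy genes. Abundance is given in CPM (the gene's share of the fibre's gene counts, per 1000000), and for comparison between genes also per length in TPM (counts per kilobase of counted exon, scaled to the same total in each fibre). Of 24421 annotated genes, 16396 had a count in at least 1 fibre and 9853 in each of the 27. A mean of at least 10 CPM was reached by 6045 genes, which held 98.1% of counts, while 1074 reached 100 CPM and 70 reached 1000 CPM. Atp2a1, Myh4 and Acta1 together took 21.2% ± 1.39 (SD, n = 27 fibres) of counts. The 10 most abundant genes took 36.0% ± 1.09 and the 100 most abundant 59.1% ± 1.26. The number of genes that held 50% of the counts was 31.

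The level in each fibre of the 3 defining genes was high throughout. Atp2a1, the calcium pump of the fast sarcoplasmic reticulum (chr7:126445860-126463073, mm10), had lowest, median and highest values of 44579.6, 83716 and 91586 CPM, with a mean of 81976 ± 9386 CPM. Myh4, the type IIb myosin heavy chain (chr11:67237812-67260447), stood at 28821, 67298 and 78138 CPM, with a mean of 65185 ± 10107 CPM. Acta1, the skeletal actin (chr8:123891758-123894775), stood at 54638, 64735 and 88253 CPM, with a mean of 65063 ± 6684 CPM. The lowest Atp2a1 and Myh4 and the highest Acta1 all fell in fibre 13, and without it the next lowest Myh4 was 49068 CPM. The label was also checked on the other adult myosins, per length. Myh4 stood at 21071 ± 3837 TPM, Myh1 of type IIx fibres at 56.1 ± 18.7 TPM and Myh2 of type IIa fibres at 56.4 ± 15.9 TPM. The per-length ratio of Myh4 to Myh1 was 255 in the lowest fibre, 395 in the median and 787 in the highest, so that no fibre came near a mixed IIb and IIx profile. Slow Myh7 reached at most 0.173 CPM.

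**Figure D1:**
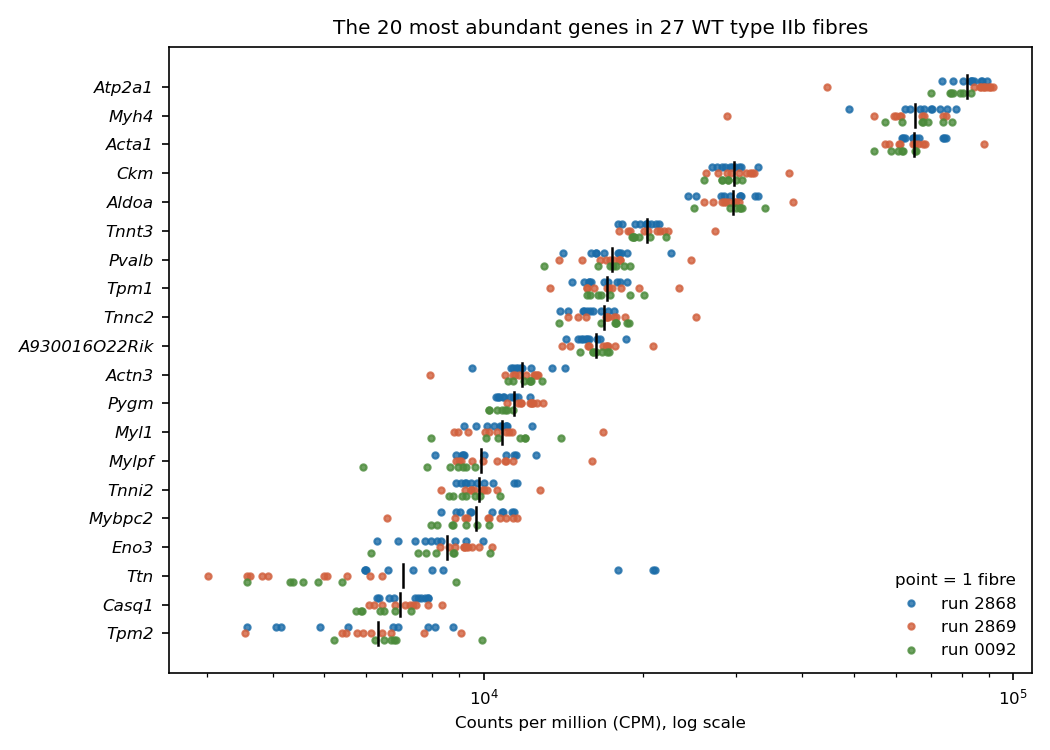
CPM (log axis) of the 20 most abundant genes, 1 point for each of the 27 WT fibres, coloured by sequencing run, with the mean as a black bar. Points sit close to the mean for most genes, while 3 fibres of run2868 sit at 17950.3 to 21052 CPM of Ttn and fibre 13 (run2869) sits apart for Atp2a1 and Myh4.

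Order depended on whether gene length was taken into account. By CPM the first 10 were Atp2a1, Myh4, Acta1, Ckm, Aldoa, Tnnt3, Pvalb, Tpm1, Tnnc2 and A930016O22Rik. Per length the first 10 were Acta1, Tnnc2, Atp2a1, Ckm, Pvalb, Tnnt3, Aldoa, Tnni2, Mylpf and Myh4, so 8 genes were in both. Acta1 led at 80146 ± 6136 TPM, followed by Tnnc2, the fast troponin C, at 47036 ± 3836 TPM and Atp2a1 at 46422 ± 6501 TPM. Tnnc2 and Atp2a1 differed in mean by less than 1 SD of either over fibres, so their order is not settled. Ttn, the giant spring protein of the sarcomere, ranked 18 by CPM and 758 per length, at 132 ± 96.6 TPM. A930016O22Rik is annotated on the strand opposite Ckm and shares 451 exonic bases with it. Its level is uncertain, since reads of the pair cannot be told apart unless the library kept strand, and no source used here says whether it did.

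The 200 bases upstream of the annotated start are shown for the 3 defining genes and for Actc1, the cardiac actin that these fibres also held, at a 185-fold lower mean TPM than Acta1. They are RefSeq sequences (GRCm38.p6, the build of the files), written 5′ to 3′ on the strand of the gene, and end at the base before the start. Capitals mark TATAAA (on either strand) and the CArG box, the site named for serum response factor. Myh4 is at chr11:67237612-67237811 on the plus strand and Acta1 at chr8:123894776-123894975 on the minus strand. Atp2a1 is at chr7:126463074-126463273 and Actc1 at chr2:114052876-114053075, both on the minus strand. The start used for Actc1 lies upstream of the counted gene, which begins at chr2:114052811, so its window does not adjoin the counted exons.
Myh4: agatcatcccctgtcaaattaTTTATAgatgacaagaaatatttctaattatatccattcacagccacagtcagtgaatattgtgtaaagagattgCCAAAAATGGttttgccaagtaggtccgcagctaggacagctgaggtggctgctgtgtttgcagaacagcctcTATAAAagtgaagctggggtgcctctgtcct
Acta1: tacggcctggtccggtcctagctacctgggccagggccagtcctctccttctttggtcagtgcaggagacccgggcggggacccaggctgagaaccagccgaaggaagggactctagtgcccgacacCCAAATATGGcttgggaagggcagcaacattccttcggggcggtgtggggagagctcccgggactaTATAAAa
Atp2a1: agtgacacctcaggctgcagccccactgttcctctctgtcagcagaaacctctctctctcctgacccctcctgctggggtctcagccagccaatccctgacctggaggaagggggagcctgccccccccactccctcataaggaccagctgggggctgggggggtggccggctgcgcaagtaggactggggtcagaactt
Actc1: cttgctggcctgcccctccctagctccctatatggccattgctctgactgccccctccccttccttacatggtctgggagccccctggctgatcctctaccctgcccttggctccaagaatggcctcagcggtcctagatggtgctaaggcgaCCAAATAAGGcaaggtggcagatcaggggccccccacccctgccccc

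A CArG box was found in the windows of Myh4 (104 to 95 bases before the start), Acta1 (73 to 64 bases) and Actc1 (47 to 38 bases), and none in that of Atp2a1. Over 32851 promoter windows of the same length, 1.18% held one. TATAAA was found at 31 to 26 bases in Myh4, with a copy on the other strand at 179 to 174 bases, and at 7 to 2 bases in Acta1, and it occurred in 9.96% of windows. The looser E-box CANNTG, left in lower case, was present once in Myh4 and once in Atp2a1 and in 58.2% of windows. These are matches of letters and say nothing of whether a factor bound.

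Thick filament genes held 10.4% of counts, most of them Myh4. The fast light chains were abundant per length, with Mylpf at 25246 ± 3859.9 TPM and Myl1 at 18871 ± 2209 TPM. Fast myosin binding protein-C, Mybpc2, stood at 5205 ± 784 TPM and its slow counterpart Mybpc1 at 1828 ± 278 TPM. In single fibres Mybpc2 ran from 6563 to 11556 CPM with a median of 9479 CPM, so each of the 27 fibres held it. Of the 21 listed thick filament genes, 12 reached a mean of 10 CPM. Perinatal Myh8 was among them at 162 ± 56.9 CPM, close to Myh1 (172 ± 54.1 CPM) and Myh2 (175 ± 45.1 CPM), and the 3 ranges over fibres overlapped. Myh1 and Myh2 were lowest in fibre 13, as Myh4 was. Whether reads of the far more abundant Myh4 were counted to these related genes was not tested, so their levels are uncertain. The slow light chain Myl3 was at 0 in each fibre.

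Thin filament genes held 14.3% of counts, and 14 of 18 reached 10 CPM. Besides Acta1 and Tnnc2, fast troponin T (Tnnt3) stood at 35115 ± 2229 TPM, fast troponin I (Tnni2) at 28412 ± 1993 TPM and tropomyosin Tpm1 at 10081 ± 868 TPM. The slow troponins Tnnt1, Tnnc1 and Tnni1 had means of 0.0657, 0.0228 and 0.0168 CPM. Nebulin (Neb), the thin filament ruler, took 5134 ± 1266 CPM but only 444 TPM. Titin and Z-disc genes held 3.98% of counts with 23 of 26 members at 10 CPM or more, led per length by Actn3, the fast alpha-actinin, at 7949 ± 984 TPM and Tcap, the titin cap, at 7383 ± 1566 TPM.

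Calcium handling genes held 11.7% of counts, with 19 of 22 at 10 CPM or more. After Atp2a1 came Pvalb, a soluble calcium buffer of fast fibres, at 37349.7 ± 3731 TPM, and Casq1, the fast calsequestrin, at 7180.2 ± 742 TPM. The release channel Ryr1 stood at 194 TPM and its voltage sensor Cacna1s at 317 TPM. Slow and cardiac forms were scarce: Atp2a2 had 16.5 CPM, and Sln, Pln and Casq2 had 2.09, 1.69 and 0.417 CPM.

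By share of counts, energy genes were weighted to phosphagen and glycolysis. These shares are not adjusted for length, and the median counted length was 2692 bases in the glycolysis and glycogen list and 1001 in the respiratory chain list. The 6 phosphagen and adenylate genes held 3.79% of counts, mostly Ckm, the muscle creatine kinase, at 40699 ± 2447 TPM. The 20 genes of glycolysis and glycogen use, each over 10 CPM, held 8.11%, led by Aldoa (31370 ± 1949.8 TPM), Eno3 (10298 ± 1141 TPM) and Pygm, the glycogen phosphorylase (7789 ± 675 TPM). The 25 respiratory chain genes listed, all nuclear-encoded and only a part of the chain, held 1.79%. The 15 citrate cycle genes held 0.788% and the 17 genes of fatty-acid oxidation and oxygen storage 0.173%. Within the chain Cox6a2, the muscle form of a cytochrome oxidase subunit, led at 6095 ± 1129 TPM, and its CV fell from 0.239 to 0.139 without fibre 13. Gapdh stood at only 271 TPM. It has many near-identical processed copies in the mouse genome, and the counting left out reads that mapped to several places, so its level is uncertain, as are those of ribosomal protein genes.

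The spread between fibres was then described by the coefficient of variation (CV, the SD over fibres divided by the mean CPM). Over the 6045 genes the median CV was 0.176, with 5th and 95th percentiles of 0.101 and 0.447. Counting error alone would give a median of 0.0520. For 96.2% of genes the CV was above 2 times the counting value, and for 0 genes was it at or below it. Intervals of this kind cover counting error only, since amplified reads are not independent molecules. A CV below 0.1 was seen in 282 genes (4.67%), above 0.5 in 229 (3.79%) and above 1 in 21 (0.347%).

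The CV fell with abundance at first and then levelled off. Its median was 0.206 for 2762 genes at 10 to 30 CPM, 0.157 at 30 to 100 CPM and 0.141 at 100 to 300 CPM. It was 0.1497 for 230 genes at 300 to 1000 CPM and 0.123 for the 70 genes above. The counting CV over the same steps fell from 0.0713 to 0.00571, so the median CV of abundant genes stayed above it. That value covers the counting of reads only, and the part of the sampling of molecules before amplification was not tested. Each gene was therefore also compared with the rolling median CV of the 100 genes on either side in abundance. At the ends of the order the nearest full window was used, so the most abundant genes shared the same value, 0.141. The comparison is a log2 ratio in which 0 is typical and 1 is a doubling, and 480 genes (7.94%) lay above 1.

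**Figure D2:**
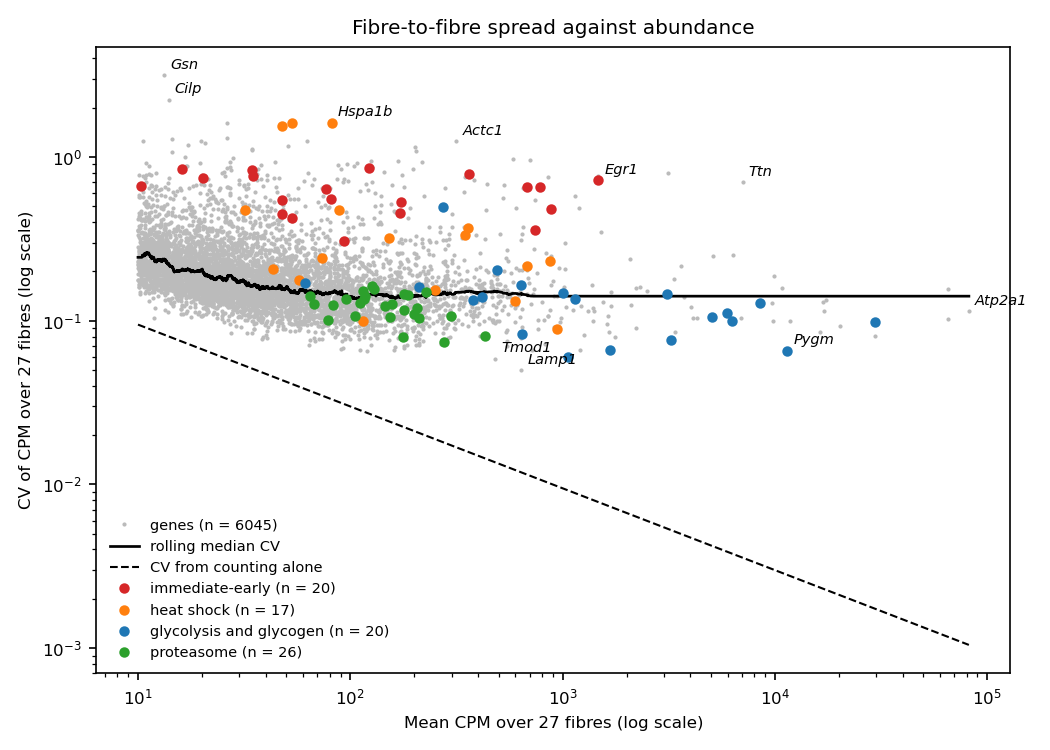
CV of CPM against mean CPM over the 27 fibres (both axes log) for 6045 genes, with the rolling median (solid) and the CV that counting alone gives (dashed). Immediate-early genes lie above the solid line, glycolytic and proteasome genes mostly on or under it, and the cloud flattens at high abundance while the dashed line keeps falling.

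The 15 lowest CVs lay between 0.0501 and 0.0698. Lamp1, a lysosomal membrane protein, had the lowest CV, 0.0501, with lowest, median and highest values of 573, 639 and 708 CPM. Tmod1, which caps thin filaments, followed at 0.0585 (399, 483 and 516 CPM), and Gpi1, a glycolytic isomerase, at 0.0602 (912, 1069 and 1189 CPM). Of the other 12, Pitpna, Pygm, Adssl1, Pgm2, Cdip1, Apba3, Bin1, Cyb5r1, Tstd2, Ssr1, Mapk12 and Dym, the CV was 0.0652 to 0.0698. After the line on gene length was removed, an alternative chosen after seeing the data, the CV of Ssr1 was 0.174 instead of 0.0685. Pygm and Pgm2 act in glycogen breakdown, Adssl1 in the purine nucleotide cycle and Bin1 at the transverse tubule. Tstd2 and Tmod1 share 1287 exonic bases on opposite strands, so Tstd2 is not a separate case. Relative to abundance, Taf11 (-1.22 on the log2 scale) and Tex264 (-1.16) were also among the 10 lowest, at means of 11.9 and 27.6 CPM.

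Most of the 20 most abundant genes were steady, and leaving out fibre 13 lowered the CV of several. Ckm had a CV of 0.0808, Tnnt3 0.0922, Aldoa 0.0982, Acta1 0.103, Atp2a1 0.114, Tnnc2 0.130 and Myh4 0.155. Without fibre 13 the CV of Atp2a1 was 0.0694 and that of Myh4 0.108. In that fibre 17.7% of the 6045 genes had their highest value, against an even share of 3.70%, and short transcripts such as Tnnc2, Myl1 and Pvalb were at their highest. Exceptions among the 20 most abundant were Ttn (0.699), Tpm2, the beta-tropomyosin (0.252, 3545 to 9937 CPM), and Mylpf (0.186). Myl1 (0.158) and Myh4 (0.155) also lay above 0.141, the rolling median CV shared by the most abundant genes.

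Among the 19 lists with at least 5 members at 10 CPM or more, the median CV of the members was lowest for phosphagen genes and highest for immediate-early genes. It was 0.120 for phosphagen and adenylate genes, 0.122 for the citrate cycle, 0.126 for 26 proteasome genes and 0.131 for glycolysis. It was 0.141 for the thin filament, 0.143 for calcium handling, 0.160 for the respiratory chain, 0.172 for the thick filament, 0.172 for fatty-acid oxidation and 0.176 for 36 ribosomal protein genes, against 0.176 over all genes. Above these came the reference genes (0.207), titin and Z-disc (0.231), heat shock (0.241), neuromuscular junction (0.252), myotendinous junction (0.268), muscle transcription factors (0.288, or 0.167 for members at 100 CPM or more), clock (0.310), atrophy and metallothionein (0.407) and immediate-early genes (0.642). Relative to abundance the medians of these 19 lists ran from -0.24 (citrate cycle) to 1.93 (immediate-early) on the log2 scale.

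**Figure D3:**
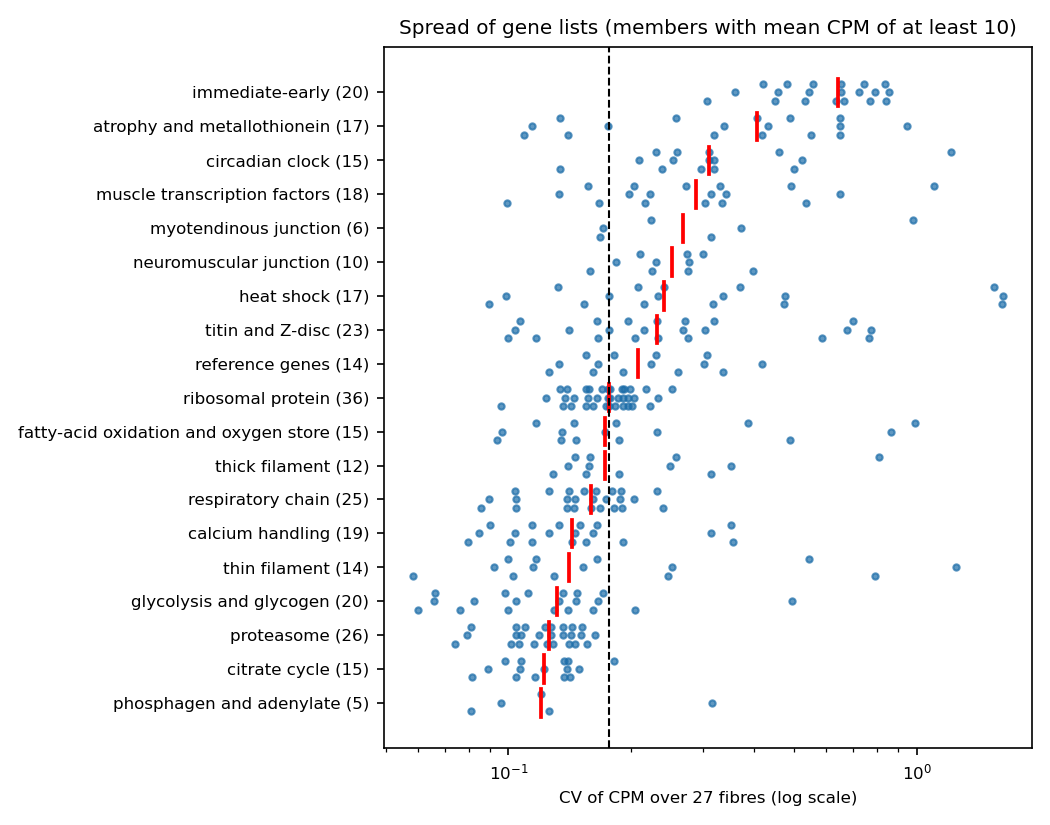
CV of CPM over the 27 fibres (log axis) for members of 19 gene lists with at least 5 members at a mean of 10 CPM or more. Blue points are genes, red bars list medians, the dashed line the median of all genes (0.176), and the number in brackets counts the members shown.

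Immediate-early genes, which cells switch on within minutes of a stimulus, were both abundant and variable. Of 25 listed, 20 reached 10 CPM and each of these had a CV over 2 times that of genes of like abundance, where 7.94% of all genes did. Egr1, a zinc-finger factor, ran from 55.6 CPM in fibre 15 through a median of 1673 to 3793 CPM in fibre 4. Fos ran 49.4, 828 and 1619 CPM, Junb 214, 988 and 1719 CPM and Ier2 4.17, 109 and 442 CPM (lowest, median and highest). The summed level of the list was 1496, 6111 and 11109.6 CPM, lowest in fibre 15 and highest in fibre 6. Correlations were computed for 4 members with Egr1. Spearman's correlation with Egr1 was 0.76 for Btg2, 0.93 for Ier2, 0.85 for Fos and 0.73 for Egr2 over the 27 fibres, and 0.79, 0.89, 0.86 and 0.82 after run means were removed. Fibres may share a mouse or a run, so these are descriptions. The steadiest member was Klf6, with a CV of 0.306. Isolation in collagenase was common to the fibres, and its part in these levels was not tested.

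The 200 bases upstream of Fos (RefSeq, GRCm38.p6, chr12:85473690-85473889 on the plus strand) are shown as those of an immediate-early gene outside the sarcomere set. Capitals mark TATAAA, found 33 to 28 bases before the start. No CArG box was in this window, and bases further upstream were not searched.
Fos: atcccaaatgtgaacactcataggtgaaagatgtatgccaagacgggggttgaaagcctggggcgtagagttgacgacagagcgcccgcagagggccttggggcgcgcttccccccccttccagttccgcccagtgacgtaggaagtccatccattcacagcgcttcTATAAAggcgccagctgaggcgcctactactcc

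Heat shock genes split into inducible members that varied widely and constitutive ones that did not. Hspa1b, an inducible Hsp70, ran from 2.30 CPM in fibre 25 through 24.4 to 556 CPM in fibre 12, with a CV of 1.62. Hspa1a ran 1.41, 16.4 and 299.2 CPM (CV 1.55) and their co-chaperone Dnajb1 4.98, 23.5 and 415 CPM (CV 1.62). The 2 highest fibres of Hspa1b and of Dnajb1 were the same, 12 and 17, at 556 and 417 CPM of Hspa1b. Without fibre 12 the CV was 1.49 for Hspa1b and 1.23 for Dnajb1. Spearman's correlation was 0.68 between Hspa1b and Dnajb1, but -0.12 between Egr1 and Hspa1b. The constitutive Hsp90ab1 (941 ± 84.2 CPM) had a CV of 0.0894, Hspd1 0.0989 and Hspa8 0.132. The small heat shock proteins lay between, with Hspb6 at 0.232 and Hspb7 at 0.475. Of the 17 genes, 8 had a CV over 2 times that of genes of like abundance, where 7.94% of all genes did.

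Hspa1a and Hspa1b are near-identical copies, and the Spearman correlation between them was 0.99. Reads of the pair may be split or lost in counting, so the single levels are uncertain. Their upstream windows (RefSeq, GRCm38.p6, Hspa1b at chr17:34959239-34959438 on the minus strand and Hspa1a at chr17:34972157-34972356 on the minus strand) are the same at 199 of 200 bases. Capitals mark GAANNTTC, the paired half-sites of a heat shock element, 104 to 97 bases before the start in both. It was in 5.36% of all windows, and the other arrangement, TTCNNGAA, in 5.72% and in neither of these.
Hspa1b: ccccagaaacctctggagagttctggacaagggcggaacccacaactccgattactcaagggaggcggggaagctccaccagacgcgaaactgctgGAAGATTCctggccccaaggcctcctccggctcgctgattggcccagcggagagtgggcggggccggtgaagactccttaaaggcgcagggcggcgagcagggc
Hspa1a: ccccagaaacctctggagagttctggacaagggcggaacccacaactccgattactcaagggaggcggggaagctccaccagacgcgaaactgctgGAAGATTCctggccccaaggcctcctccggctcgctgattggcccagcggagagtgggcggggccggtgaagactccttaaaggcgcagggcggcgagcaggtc

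Another set of variable genes, chosen by spread and described after the values were seen, had many of its high values in fibres 2, 5, 6, 7 and 16. Rrad, a small G protein that restrains calcium channels, ran 5.81, 651 and 2310.03 CPM, highest in fibre 6. Thbd, thrombomodulin, ran 9.60, 137 and 818 CPM, highest in fibre 2, with a Spearman correlation of 0.92 to Rrad. Ankrd1, a stretch-responsive ankyrin repeat protein, ran 71.1, 405 and 2637 CPM, highest in fibre 16, with a Spearman correlation of 0.82. Xirp1, of the Z-disc and intercalated actin sites, ran 107, 1155 and 3719 CPM (Spearman correlation 0.67) and had its 4 highest values in fibres 6, 1, 4 and 26. Sgms2, a sphingomyelin synthase, ran 0.765, 7.85 and 163 CPM and Hmox1, haem oxygenase, 8.51, 29.8 and 231 CPM, while Csf1 reached 51.3 CPM in fibre 7, without which its mean was 9.01 CPM and under the minimum of 10. Nab2, a co-repressor of Egr factors, reached 73.1 CPM in the same fibre. The phosphatases Dusp5 and Dusp2 peaked at 61.0 CPM in fibre 6 and 369 CPM in fibre 4. Ippk, an inositol phosphate kinase, reached 164 CPM in fibre 2. Osgin1 and Srxn1, both oxidative-stress genes, moved together with a Spearman correlation of 0.83.

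The atrophy and metallothionein list had 17 of 19 members at 10 CPM or more. Of these, 11 had a CV over 2 times that of genes of like abundance, where 7.94% of all genes did. Mt2, a metal-binding metallothionein, ran 32.4, 97.7 and 682 CPM and Mt1 128, 562 and 2029 CPM, both highest in fibre 16, with a Spearman correlation of 0.91. Of the muscle ubiquitin ligases, Trim63 (MuRF1) ran 236, 544 and 1401 CPM and Fbxo32 (atrogin-1) 210.2, 306 and 659 CPM, and the Spearman correlation between them was only 0.35. The autophagy genes Map1lc3b (CV 0.114) and Bnip3 (0.134) were steady, as was the ligase gene Fbxo31 (0.109). Per length, Mt1 was the most abundant member at 2336 ± 1527 TPM, and Sqstm1, an autophagy receptor, stood at 866 ± 165 TPM.

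Clock genes varied unevenly. Ciart, a repressor of the clock, ran 0.474, 6.56 and 76.04 CPM with a CV of 1.21, and Nr1d1 (REV-ERB alpha) 58.2, 166 and 349.7 CPM with a CV of 0.461. Spearman's correlation between them was 0.70, and Ciart also moved with Slc25a25, a mitochondrial ATP-Mg carrier (Spearman correlation 0.88). Dbp, a clock output factor, had a CV of 0.258 and a Spearman correlation of -0.19 with Nr1d1. Tef was the steadiest member, at 0.134, and Bhlhe40 the most abundant per length, at 398 ± 129.7 TPM. No source used here gives the time of day of dissection.

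Of 22 muscle transcription factors, 18 reached 10 CPM. Per length, Myf6 stood at 299.4 ± 149 TPM, Tbx15, a factor of fast fibres, at 205 ± 25.3 TPM and Mef2c at 150.4 ± 23.1 TPM. Tbx15 was the steadiest of the list, with a CV of 0.0995. Mafa and Maf had CVs of 0.272 and 0.313. Myod1 had a CV of 0.648 and Myf6 0.491. Mss51, a muscle mitochondrial gene outside the lists, ran 40.4, 102 and 1077 CPM, with 1077 CPM in fibre 5 and 641 in fibre 19, and without fibre 5 its CV was 0.930.

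Genes of the nerve contact were found in each fibre at modest levels. The neuromuscular junction list summed to 353, 419 and 608 CPM (lowest, median and highest fibre), with Ache, acetylcholinesterase, at 103 ± 23.7 CPM, Rapsn, the receptor clusterer, at 72.7 ± 13.4 CPM, and a steady Chrnb1 (CV 0.158). Musk, the agrin receptor kinase, varied most, from 6.29 to 32.1 CPM. The myotendinous list summed to 474, 823 and 3112 CPM, and the top of that range was mainly Ankrd1 in fibre 16 (2637 CPM). Itgb1, an integrin chain, stood at 203 ± 34.7 CPM, the tendon-end collagen Col22a1 at 14.2 to 58.7 CPM and Tln2 was the steadiest member (CV 0.168).

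**Figure D4:**
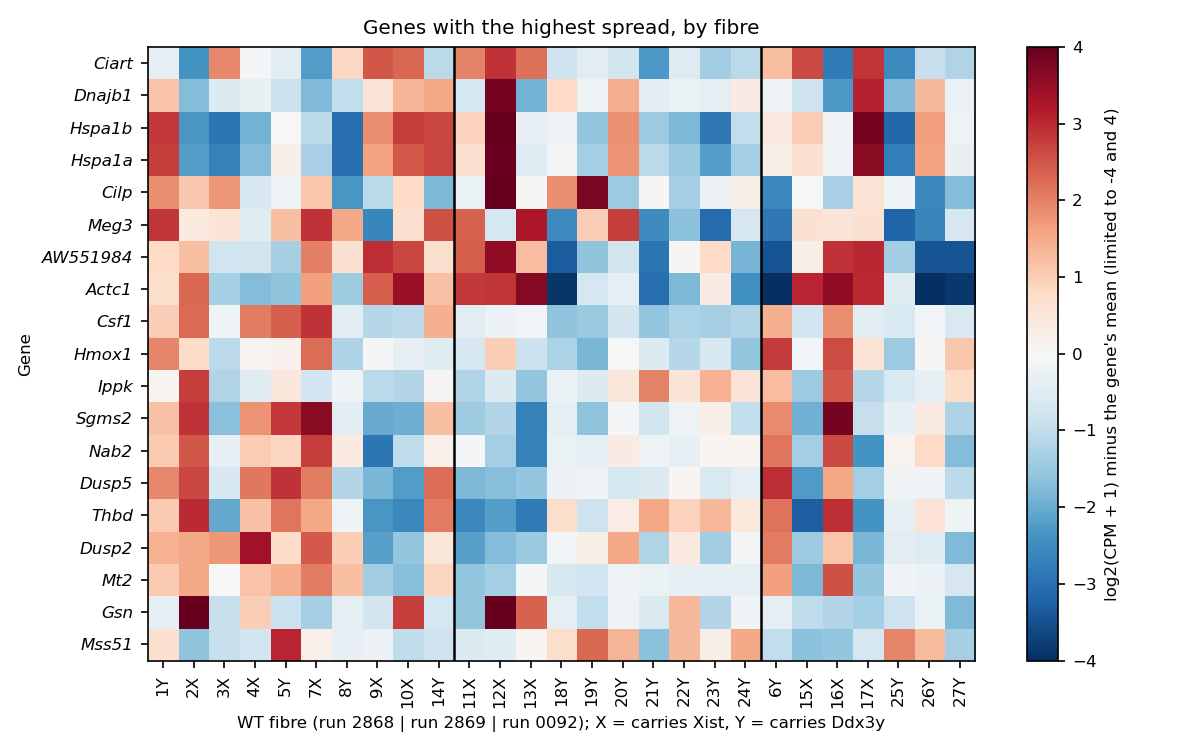
log2(CPM + 1) minus the gene's mean (colour, cut off at both ends) for genes of the highest CV and of the highest CV relative to abundance, in the 27 fibres, ordered by run and marked X or Y for the sex-linked transcript carried. Hspa1a, Hspa1b and Dnajb1 peak in fibres 12 and 17, and Sgms2 and Mt2 are highest in fibres 16 and 7.

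Sex-linked transcripts divided the fibres without overlap. Xist had lowest, median and highest values of 6.44, 12.0 and 19.49 CPM in 12 fibres and 0, 0 and 0.215 CPM in the other 15. Y-linked Ddx3y stood at 63.8, 77.9 and 103 CPM in those 15 and at 0, 0.190 and 0.510 CPM in the 12, and Eif2s3y at 32.2, 50.96 and 65.9 CPM against 0, 0.149 and 0.340 CPM. Kdm5d reached 9.65 CPM and Uty 10.2 CPM in the 15. Fibres of both kinds were in each run, with 6, 3 and 3 Xist-carrying fibres in run2868, run2869 and run0092. The division was made after the values were seen and is given without a test, and sex and mouse could not be told apart.

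Several of the most variable genes, picked with their values in view, had different medians in the 2 kinds of fibre. How many of all 6045 genes did so was not counted. Actc1, cardiac actin, ran 28.4, 694 and 1234 CPM in Xist-carrying fibres and 4.12, 30.5 and 218 CPM in the rest, and the ranges overlapped. AW551984 ran 5.30, 50.2 and 126 CPM against 0, 3.19 and 18.1 CPM, and the imprinted RNA Meg3 0.496, 12.6 and 84.4 CPM against 0, 4.70 and 66.1 CPM. Mybph, a myosin binding protein H, ran 58.2, 262 and 357 CPM against 3.35, 50.4 and 276 CPM, and the Spearman correlation between it and Actc1 was 0.85 (0.93 after run means were removed). Adora1 followed Mybph almost exactly (Spearman correlation 0.996), but the 2 genes share 662 exonic bases on opposite strands and are not separate evidence. Ciart ran 0.474, 43.9 and 76.04 CPM against 0.765, 4.84 and 23.04 CPM. In the other direction, Egr1 ran 55.6, 392 and 3793 CPM in Xist-carrying fibres and 658, 1776 and 3552 CPM in the rest, and Mss51 40.9, 77.3 and 147 CPM against 40.4, 212 and 1077 CPM. Each of these pairs of ranges overlapped, so no gene named here divided the fibres as the sex-linked transcripts did. Myh4 had medians of 69549 and 61670 CPM, within ranges that overlapped widely. The medians in Xist-carrying fibres and in the rest were 68.9 and 57.5 CPM for Dkk3 and 77.2 and 97.7 CPM for Mt2. They were 9457 and 9711 CPM for Mybpc2 and 189 and 443 CPM for Ankrd1.

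Titin set 3 fibres apart. Ttn (chr2:76703984-76982547, with 104320 counted exonic bases the longest gene of the set) stood at 17950.3, 20913 and 21052 CPM in fibres 1, 8 and 14, all of run2868, and at 3012 to 8881 CPM in the other 24. The same 3 fibres were the highest for nebulin, at 7424, 8617 and 8446 CPM against at most 6367 elsewhere, and for Xirp2 (1017, 1343 and 1148 CPM). Spearman's correlation between Ttn and Neb was 0.89, and 0.93 after run means were removed. The rank correlation of each fibre's deviations with gene length, described next, was 0.458 in fibre 1, 0.369 in fibre 14 and 0.0045 in fibre 8, so it was positive in fibres 1 and 14 and near 0 in fibre 8.

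Gene length ran through the spread more widely. For each fibre, the rank correlation across the 6045 genes between the deviation of log2(CPM + 1) from the gene's mean and counted length ran from -0.602 in fibre 13 to 0.458 in fibre 1 (genes are not independent replicates). The median CV was 0.163 in the shortest of 4 equal classes of genes, 0.158 and 0.182 in the middle ones and 0.220 in the longest, of 4404 bases or more. After a straight line on log2 length was removed in each fibre the same medians were 0.131, 0.154, 0.178 and 0.206. RNA integrity values per fibre were not used here, and the part of RNA quality in this axis was not tested.

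Sequencing run accounted for a limited part of the spread. The median share of a gene's variance between runs was 13.1%, and the share was over 50% in 189 genes (3.13%). With no run difference the mean share would be 7.69%, which is not like for like with a median over genes. Within runs the median CV was 0.167. The precursor ribosomal RNA Rn45s, among the genes of the highest run share (81.2%) and chosen after the values were seen, stood at 4141 to 8448 CPM in run0092, 959 to 5011 in run2868 and 683 to 1693 in run2869. Ago2, of the RNA silencing complex, was highest in run2868, at 53.5 to 85.1 CPM, above each fibre of the other runs (20.5 to 45.5 CPM). Steady Pygm had 57.4% of its small variance between runs. Egr1 (3.56%), Actc1 (1.45%) and Hspa1b (0.316%) lay under the mean share expected with no run difference. Which mice were in which run is not given, so run and mouse cannot be told apart.

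**Figure D5:**
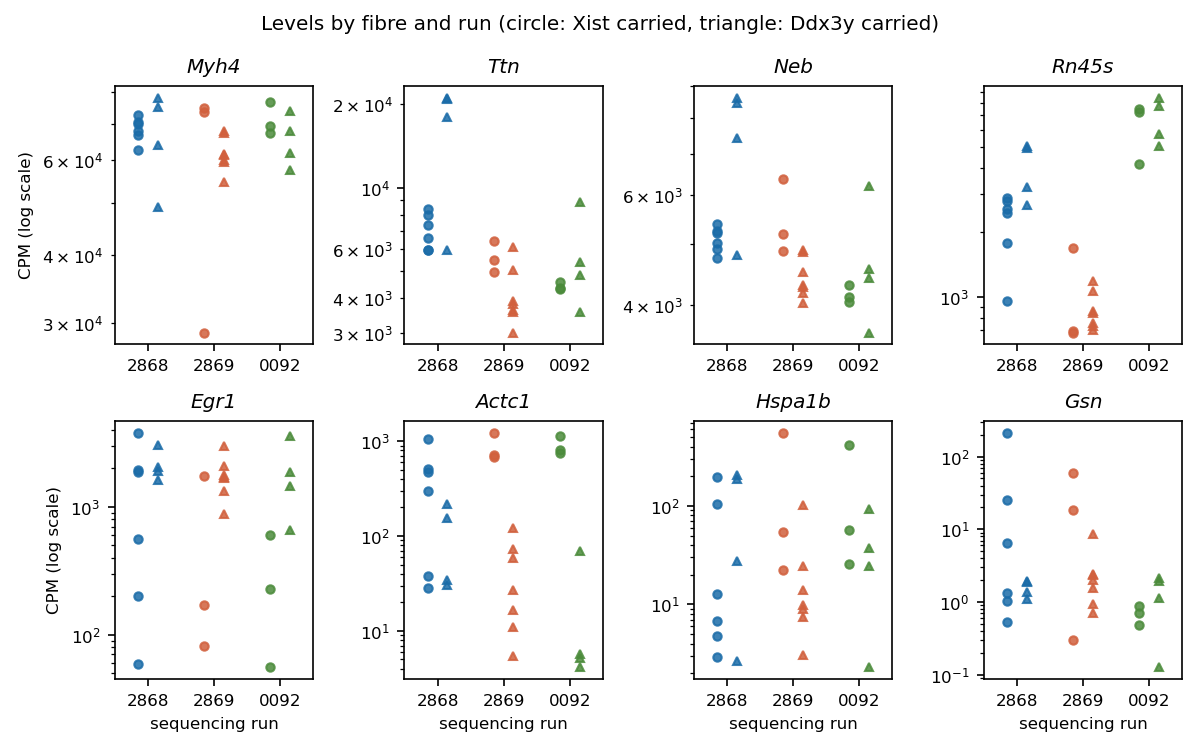
CPM (log axis, each panel its own range) of 8 genes in the 27 fibres by sequencing run, with circles for fibres that carry Xist and triangles for those that carry Ddx3y. Rn45s is highest in run0092, with some overlap with run2868, Ttn has 3 high triangles in run2868, and Egr1, Actc1 and Hspa1b spread over more than 10-fold within each run.

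RNA of other cells was low in most fibres. The 12 endothelial markers summed to 0, 0.878 and 5.19 CPM in the lowest, median and highest fibre, with Vwf at 0 in each and Pecam1 at most 0.847 CPM. The 11 macrophage and leukocyte markers summed to 0, 0.464 and 4.40 CPM, with Ptprc, Csf1r, C1qa, Tyrobp and Laptm5 at 0. The 5 erythrocyte markers summed to 0, 0.126 and 0.932 CPM, and their globins were at 0, although near-identical globin copies can lose reads in this counting. The 6 adipocyte markers summed to 0, 0 and 1.46 CPM. Of 8 satellite cell markers, Pax7 reached at most 0.301 CPM, while Cdh15 (38.6 ± 5.23 CPM) and Sdc4 (12.6, 24.9 and 129.7 CPM) made up most of the sum of 44.0, 69.9 and 164 CPM. Mural markers summed to 93.1, 199.97 and 569 CPM, nearly all of it Mustn1, which muscle also expresses, with Rgs5 at most 0.616 CPM. Schwann markers summed to 3.20, 11.5 and 31.9 CPM, mostly Pmp22, with Mal at 0. Tenocyte markers summed to 6.03, 12.3 and 18.7 CPM, mostly Scx, with Tnmd, Fmod and Col11a1 at 0. Slow-fibre genes summed to 11.3, 29.9 and 60.6 CPM, mostly Atp2a2 and Tpm3.

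Fibroblast genes were the exception, in a few fibres. The 13 fibroblast and matrix markers summed to 14.4, 35.05 and 405 CPM, and the 4 highest fibres were 2 (405 CPM), 12 (159 CPM), 10 (107 CPM) and 13 (76.02 CPM). Gsn, gelsolin, had the highest CV of the 6045 genes, 3.15, and 59.5% of its summed CPM lay in fibre 2 (214 CPM against a median of 1.59). In fibre 2, 10 of the 13 markers had their highest value, among them Col3a1 at 59.9 CPM and Dcn at 33.4 CPM. Cilp, a cartilage matrix protein that is not in this list, had the second-highest CV (2.24). It stood at 150.04 CPM in fibre 12 and 79.4 CPM in fibre 19, with a median of 4.21. The Spearman correlation between Gsn and Cilp was only 0.11, and 0.02 after run means were removed. Without its highest fibre, Gsn had a mean of 5.60 CPM and Cilp 8.71 CPM, both under the minimum of 10. Their inclusion among the 6045 genes thus rested on 1 fibre each. The CV stayed high without that fibre, at 2.23 for Gsn and 1.797 for Cilp, against 1.62 for Hspa1b over the 27 fibres. Sparc, which muscle also expresses, was spread over the fibres (9.52 to 58.4 CPM).

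Of 16 genes often used for normalisation, 14 reached 10 CPM, and 1 of these had a CV over 2 times that of genes of like abundance, where 7.94% of all genes did. Sdha was the steadiest at a CV of 0.126 (711 ± 89.2 CPM), followed by Pgk1 (0.133), Rplp0 (0.155) and Gapdh (0.161). Actb was at 0.230 and Polr2a at 0.418. Among ribosomal protein genes Rpl4 was the steadiest (0.0962), while Psmd1 (0.0741) and Psmd8 (0.163) bounded the proteasome. Mitochondrial Atp5b (0.0855) and Hadh (0.0940) were steadier than any of the 14 reference genes. In contrast Lpl, lipoprotein lipase, ran 3.95, 13.5 and 114 CPM, the hexokinase Hk2 96.4, 263 and 752 CPM, Ckmt2 229, 405 and 823 CPM and the slow alpha-actinin Actn2 55.2, 118 and 508 CPM, and they were the most variable of their lists.

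Just inside the minimum of 10 CPM were Polr2a and Ddx18, with 5.85 to 22.5 and 6.32 to 13.6 CPM over fibres. Just outside were Pigb and Arhgap19, both with a mean of 9.99 CPM and with ranges of 6.21 to 13.9 and 3.40 to 16.7 CPM.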

How the data were processed

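Single-fibre RNA from 27 WT EDL fibres was sequenced in paired-end libraries, and the deposited files hold raw counts per gene. The authors made these counts with featureCounts 1.5.2 per the file headers: paired reads on exons of the UCSC mm10 models, grouped by gene name, with the reverse-strand setting. The command had no option to count reads with several mapping places. HISAT2 2.0.5, FastQC 0.11.2 and CASAVA 1.4 are credited to the submitters' processing notes. No source used here says if the kit preserved strand.

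Counts were divided by each fibre's total to give CPM, and by exon length for TPM. Genes with a mean of at least 10 CPM were kept. CV, the counting CV (from the mean of the inverse depths), the rolling median over 100 genes on either side, variance shares between runs and Spearman correlations were computed in Python 3.11.15 with pandas 2.3.3. The calculation was tested on simulated data. No test was made, since fibres were not tied to mice. Alternatives used TMM factors (edgeR 4.0.16) and size factors (DESeq2 1.42.0). Genes were named by rule: the 6 myosin, pump and actin markers, the 20 most abundant and 10 per length, the 15 highest and 15 lowest CVs, the 15 highest and 10 lowest relative to abundance, the leading and extreme members of each of 30 lists, the genes nearest the minimum, and the sex-linked genes. The other genes described (Rrad, Xirp1, Osgin1, Srxn1, Xirp2, Rn45s, Ago2, Slc25a25, Adora1, Fos and other list members) were picked with their values in view. Some genes that the rule names are not reported here. The members and lists were chosen with earlier results of these data known.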

Additional observations from a re-analysis of the deposited data

How the results depend on the processing

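Scaling by TMM or median-of-ratios factors, removing the 10 most abundant genes from the totals, thinning to the lowest depth and leaving out each run or fibre kept the median CV between 0.167 and 0.187. With fibres left out in turn the median CV was 0.167 to 0.178. The minimum set the numbers of genes: 9996 reached a mean of 1 CPM, with a median CV of 0.233, and 1074 reached 100 CPM. The median share of variance between runs fell to 7.83% without run0092, 6.73% without run2868 and 6.63% without run2869. With no run difference, the mean share for the 2 runs left would be 5.26%, 6.25% and 6.25%. Fewer runs thus also lower the expected share. These are means set beside medians, so they do not measure how much of the share is due to runs. Of 2278 further values of lists and named genes, 16 moved by more than their limit. For a gene's CV the limit was the SD over fibres of its absolute deviation from the mean, divided by the mean. That limit is wide for the most variable genes, so the low number moved does not show that their CVs are stable. The median relative spread of the fibroblast list (2 genes) fell to 1.44 without run2868 and 1.32 without fibre 2. With members at 100 CPM or more, the median CV of muscle transcription factors was 0.167. With a minimum of 1 CPM, the median CV was 0.784 for satellite cell and 0.674 for tenocyte markers, and the median relative spread of mural markers was 1.33. A robust CV (from the median absolute deviation) gave 1.32 for Mybph, 1.26 for Adora1, 1.27 for Xirp1 and 0.663 for Eif2s3y. Removing the length line gave a CV of 0.174 for Ssr1 and 0.203 for Asph. Within runs, Rn45s had a CV of 0.360 and Ago2 0.176. The causes were not tested. Chosen after seeing the data, leaving out fibres 2, 12 and 13 gave a median CV of 0.167, and removing the length line, also chosen then, gave 0.165. No paired analysis was possible because no test was made and the fibre numbers only name samples. Depth limits genes under the minimum, where counting error takes a larger part.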
